A study of Mus musculus with 29 samples.

Results

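B cells in the brain of mice after stroke or sham surgery were taken as every brain cell to which the authors' deposited annotation gives the parent code Bc. There were 542 such cells among 55268 brain cells, and the whole series holds 106977 cells. Of the brain B cells, 446 came from young and 96 from aged mice. The comparison population was 6956 cells with the same code in blood of young sham mice.

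The data are Drop-seq libraries, in which single cells are captured in droplets with barcoded beads. All mice were C57BL/6J. Young mice were males of 8 to 10 weeks and aged mice were males or females of 17 to 20 months. In stroke mice the middle cerebral artery had been blocked for a time and reopened, and controls had sham surgery. Young brain libraries numbered 4 for sham at day 2, 4 for stroke at day 2 and 4 for stroke at day 14. Aged brain libraries numbered 1 for male sham, 1 for female sham and 1 for male stroke at day 2, 2 for female stroke at day 2, and 1 for female stroke at day 14. All sham libraries were of day 2, so stroke and time cannot be told apart in any difference of day 14 from sham. Each brain library pooled 4 to 5 hemispheres, digested with papain in the presence of the transcription inhibitor actinomycin D and sorted for leukocytes with high CD45, microglia and endothelial cells. Each blood library pooled leukocytes of 2 young males. Blood was not digested with papain and was not sorted by flow cytometry, so tissue and isolation method cannot be told apart in any difference between brain and blood. The labels do not state perfusion of the brain, so B cells inside vessels and in the tissue cannot be told apart either.

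B cells make antibody and present antigen to T cells. Their antigen receptor is a surface immunoglobulin, IgM and then also IgD in mature naive cells, which signals through CD79A and CD79B. Early stages in bone marrow express the recombinase genes Rag1 and Rag2 and the surrogate light chain genes, mature follicular cells recirculate under control of KLF2 and its target S1PR1, and plasma cells secrete antibody whose polymers carry the J chain. In the healthy mouse brain most B cells are known from the meninges and the blood vessels.

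The brain cells carried the genes that define B cells. Pooled over the 12 young libraries, Cd79a, a signalling chain of the B cell receptor, stood at 872 CPM and Ighm, the constant region of IgM, at 7724 CPM, where CPM is the count of a gene scaled to the summed counts of the cells. In the other 12 brain cell codes Cd79a reached at most 3.02 CPM and Ighm at most 253 CPM. Ms4a1, which encodes CD20, was at 3296 CPM. Brain B cells carried 2 of the authors' finer codes, with 434 cells in Bc1 and 108 in Bc2, while sham blood B cells carried 7. No cell barcode was shared between brain libraries among B cells, or between brain and sham blood B cells.

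Depth limits every result below. Each brain library held 4 to 98 B cells, with a median of 229 to 766 counts per B cell, and the summed B cell counts of young brain libraries ran from 3794 to 38694. Sham blood libraries held 972 to 2309 B cells and 543706 to 1444340 summed counts. A brain level of 100 CPM thus rests on fewer than 4 counts in any young library, and on less than 1 in the shallowest. In the summed counts, fewer cells expressing a gene and less RNA per cell cannot be told apart.

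B cells formed a smaller part of the brain cells at day 2 after stroke. Their share was 1.36%, 1.27%, 3.22% and 0.789% in the 4 sham libraries, 0.621%, 0.300%, 0.810% and 0.223% at day 2 and 0.302%, 0.944%, 1.73% and 1.19% at day 14. The means were 1.66% ± 1.07 (SD, n = 4) in sham, 0.488% ± 0.275 (SD, n = 4) at day 2 and 1.04% ± 0.591 (SD, n = 4) at day 14. Day 2 replicate 3 lay just above the lowest sham library, so the groups overlapped. The difference from sham at day 2 was -1.76 ± 0.63 (SE) on the log2 scale by the edgeR quasi-likelihood test (edgeR adjusted p = 0.0229). With libraries permuted exactly, the two-sided p was 0.0571, the smallest possible being 0.0286. Removing sham replicate 3 gave -1.22 (edgeR adjusted p = 0.165), and removing replicate 2 or 4 of day 2 gave -1.59 and -1.51 (adjusted p = 0.0775 and 0.0808), so each of these removals ended the call. At day 14 the difference from sham was -0.67 ± 0.60 (SE; edgeR adjusted p = 0.422), and day 14 differed from day 2 by 1.09 ± 0.62 (SE; edgeR adjusted p = 0.189).

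Among leukocytes other than microglia the B cell share was also lower in both stroke groups than in sham of day 2. B cells made up 9.92%, 8.01%, 15.8% and 7.77% of these leukocytes in sham, 0.860%, 0.461%, 0.976% and 0.503% at day 2 and 0.655%, 1.84%, 2.76% and 2.83% at day 14. The log2 difference from sham was -3.86 at day 2 and -2.35 at day 14 (edgeR adjusted p = 9.9e-06 and 0.000559). Both stroke groups lay wholly below sham (exact two-sided permutation p = 0.0286 for each, the smallest possible). Number of B cells and number of other leukocytes both enter this share: sham libraries held 386 to 749 such leukocytes and day 2 libraries 1987 to 2868 among similar totals of cells. A share cannot tell loss of B cells from gain of other cells, and no absolute cell number was given in the sources used here.

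**Figure D1:**
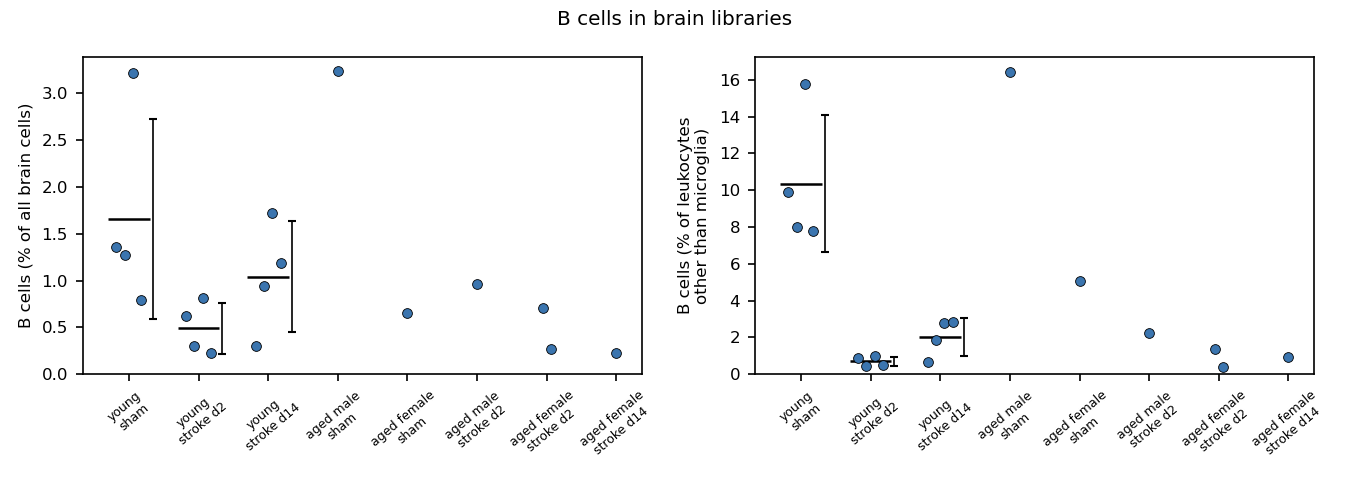
Share of B cells in each brain library, as a percent of all brain cells (left) and of leukocytes other than microglia (right), by group. Points are libraries, lines and bars are the mean and SD of groups with 4 libraries. Among leukocytes the 4 young sham libraries, at 7.77% to 15.8%, sit above all 8 young stroke libraries.

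The 6 aged libraries, 1 or 2 for each sex, treatment and day, are given as values and were not tested. The share of all cells was 3.24% in the male sham library, 0.652% in the female sham library, 0.959% in the male and 0.710% and 0.272% in the female libraries at day 2, and 0.228% in the female library at day 14. As a share of leukocytes other than microglia, the 2 aged sham libraries were at 16.4% and 5.05% and the 4 aged stroke libraries at 0.369% to 2.25%. Within each sex the sham library was the highest on this measure.

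Brain B cells of sham mice differed from blood B cells of sham mice in 28 of 4437 genes tested, which is 0.631% of them (edgeR quasi-likelihood test on counts summed per library, adjusted p under 0.05). There were 14 genes higher and 14 lower in brain, each 0.316% of the genes tested. The genes higher in brain included early response genes, which are switched on within minutes to hours of antigen receptor or other stimulation (Nr4a1, Cd83, Junb), and the genes lower in brain included Klf2, the regulator of lymphocyte recirculation. In data simulated on these libraries, 6.85%, 49.3% and 64.3% of genes changed 2-, 4- and 8-fold were recovered. These were 5 of 73, 35 of 71 and 36 of 56 genes, beside 8 false calls among 4495 genes tested. Adjusted p-values pass more easily when many genes change, so these rates can overstate recovery in the data. In 27 of the 28 genes the 4 brain and the 4 blood libraries did not overlap, as for 2.73% of all tested genes on the higher side and 7.98% on the lower side. Scaling matters for the split: the median log2 difference of all genes was -0.34 with the TMM scaling used, -0.18 with DESeq2, which called 30 higher and 13 lower, and -0.10 with plain library size, which gave 17 higher and 6 lower. None of the 28 genes turned its direction under any setting run. The count of 28 rose to 158 of 14295 genes without a filter on low counts. It fell to 4 genes without brain sham replicate 2, the library with 60 B cells, and to 17 without brain sham replicate 3. It was 14, 15 and 9 without blood replicates 1, 3 and 4, where 463 to 472 genes passed the filter on low counts over the fits that left out a blood library. Cd83, Nr4a1, Slfn2 and Cst3 were called in each fit that tested them.

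Cd83, a surface protein of activated B cells and dendritic cells that stabilises MHC class II, stood apart most firmly. Its level was 689.9, 523, 1280 and 824 CPM in the brain sham libraries and 104, 94.1, 92.5 and 106 CPM in the blood sham libraries. Every brain library was above every blood library. The log2 difference was 2.80 ± 0.31 (SE; edgeR adjusted p = 5.41e-05). The gene lies at chr13:43784775-43803132 on the plus strand (mm10, GENCODE vM21).

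Nr4a1, a nuclear receptor whose transcription follows antigen receptor signalling in lymphocytes, was nearly absent from blood B cells. Its level was 256, 183, 321 and 308 CPM in the brain sham libraries and 8.25, 0.908, 0 and 7.81 CPM in blood. The brain values rest on 21 counts out of 80159 and the blood values on 20 counts out of 3662960. The log2 difference was 5.36 ± 0.63 (SE; edgeR adjusted p = 7.38e-05). The gene lies at chr15:101254269-101274795 on the plus strand.

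The 250 bases before the RefSeq start of Nr4a1 are shown because this gene had the largest fitted difference among the higher genes and its promoter is a textbook target of CREB, whose full palindromic site TGACGTCA contains the shorter motif TGACG searched here. They lie at chr15:101266596-101266845 (GRCm38.p6, plus strand), and capitals mark TGACG on either strand.
Nr4a1: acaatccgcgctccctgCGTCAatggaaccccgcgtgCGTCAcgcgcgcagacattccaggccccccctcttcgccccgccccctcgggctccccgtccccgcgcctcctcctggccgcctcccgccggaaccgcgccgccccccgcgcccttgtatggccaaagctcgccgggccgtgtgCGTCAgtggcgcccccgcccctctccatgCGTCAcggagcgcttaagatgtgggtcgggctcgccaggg
The stretch holds 4 matches. At least 1 match is present in 17.8% of the 32851 RefSeq promoter stretches of this length, and at least 4 matches in 0.137%. The bound of 4 was taken from this stretch, so 0.137% does not test how unusual the stretch is. The full CREB site TGACGTCA, the AP-1 motif TGANTCA and the NF-kB motif GGGNNTTCC, searched on both strands, have 0 matches here and at least 1 in 1.55%, 6.75% and 4.98% of the stretches. The matches describe the sequence only, and binding was not measured.

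Other genes were also higher in brain B cells. Irs2, an adaptor of insulin and interleukin-4 signalling, was at 146, 409, 437 and 309 CPM in brain against 35.3 to 56.8 CPM in blood (log2 difference 2.58 ± 0.40 SE, edgeR adjusted p = 0.0022). Hes1, a target of Notch signalling, was at 340.3, 140.4, 126 and 204 CPM in brain against 11.99 to 25.5 CPM in blood (3.06 ± 0.51 SE, adjusted p = 0.0049). Ppp1r15a, which ends the stress-induced block of translation, was at 247 to 681 CPM against 54.6 to 101 CPM (2.30). Rgs2, a brake on G protein signalling, was at 138 to 479 CPM against 56.4 to 94.0 CPM (2.15). Junb, a subunit of the transcription factor AP-1, was at 601 to 947 CPM against 128 to 429.9 CPM (1.70). Hmgb2, a chromatin protein abundant in dividing cells, was at 254 to 1024 CPM against 156 to 168 CPM (1.60).

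Of the 20 early response genes listed, 16 were tested, 4 rose (Nr4a1, Cd83, Jun and Junb) and none fell, beside 0.316% of all genes called in each direction. Jun, which enters all values of this list, was held by another brain cell type at more than 5 times the B cell level, as given below. Libraries did not overlap on the higher side for 5 of the 16, against 2.73% of all genes. The median log2 difference of the 16 was 1.53, beside -0.34 over all genes tested. Fos, the partner of Jun in AP-1, was 475 ± 277 CPM in brain and 115 ± 104 CPM in blood (SD, n = 4 each; log2 difference 1.86, edgeR adjusted p = 0.166). Myc, a driver of growth after activation, was 140.3 ± 43.5 CPM against 43.97 ± 7.28 CPM (1.47, adjusted p = 0.193). The summed level of the 20 genes was 4898 to 7972 CPM in brain sham B cells and 2339 to 3927 CPM in blood sham B cells, with no overlap.

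Of the 14 higher genes, 6 that passed the test are not named as genes of brain B cells by the rule used for named genes, because another brain cell type held them at more than 5 times the B cell level. They are Cst3, Apoe, Ctsb, Ctsd, Nfkbiz and Jun. Cst3 was at 43624 CPM in microglia and at 2118 CPM in the pooled B cells of sham brain, and Apoe at 47244 CPM in border-associated macrophages and at 1381 CPM in those B cells. Free RNA or engulfed RNA of these cells was not tested as a source. The list of 10 monocyte and macrophage markers summed to 859 to 3516 CPM in brain sham B cells and 289 to 396 CPM in blood sham B cells, with Fn1 and Vcan at 0 in brain B cells. The list of 10 microglial markers summed to 0 to 1457 CPM in brain, with P2ry12, Tmem119 and Fcrls at 0, and to 125 to 189 CPM over the 7 of them in the blood tables. Leaving out the 14 brain sham B cells and the 22 blood sham B cells that gave more than 1% of their counts to markers of other cells left 26 genes called, 23 of them among the 28. Of the 26, 10 were higher and 16 lower in brain, against 14 and 14 with all cells. The part of these markers in the remaining differences was not tested. Of the genes named as higher, Nr4a1 was 3.95 times and Rgs2 3.12 times as high in another brain cell type as in B cells, whereas Irs2 was at 0.228 times and Cd83 at 0.828 times the B cell level there.

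T cells from the same libraries were compared for the same genes. All 14 genes higher in brain B cells had a higher mean in brain than in blood T cells, and for 10 of them the 4 brain and 4 blood libraries did not overlap. Over the 4437 genes, 61.6% of those higher in brain B cells were also higher in brain T cells, and T cell libraries did not overlap for 3.47% on the higher and 5.63% on the lower side. Nr4a1 was 231 ± 165 CPM in brain T cells (SD, n = 4) and 0 CPM in all 4 blood T cell libraries. Junb was 1101 ± 489 CPM in brain and 152 ± 53.8 CPM in blood T cells. Cd83 stayed low in T cells, at 32.3 ± 24.3 CPM in brain and 2.58 ± 3.03 CPM in blood. Of the 14 genes lower in brain B cells, 8 had a lower mean in brain T cells, and 1 of these was without overlap, beside 56.3% of all genes lower in brain B cells with the same direction. Whether the difference between tissues itself differed between B and T cells was not tested.

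**Figure D2:**
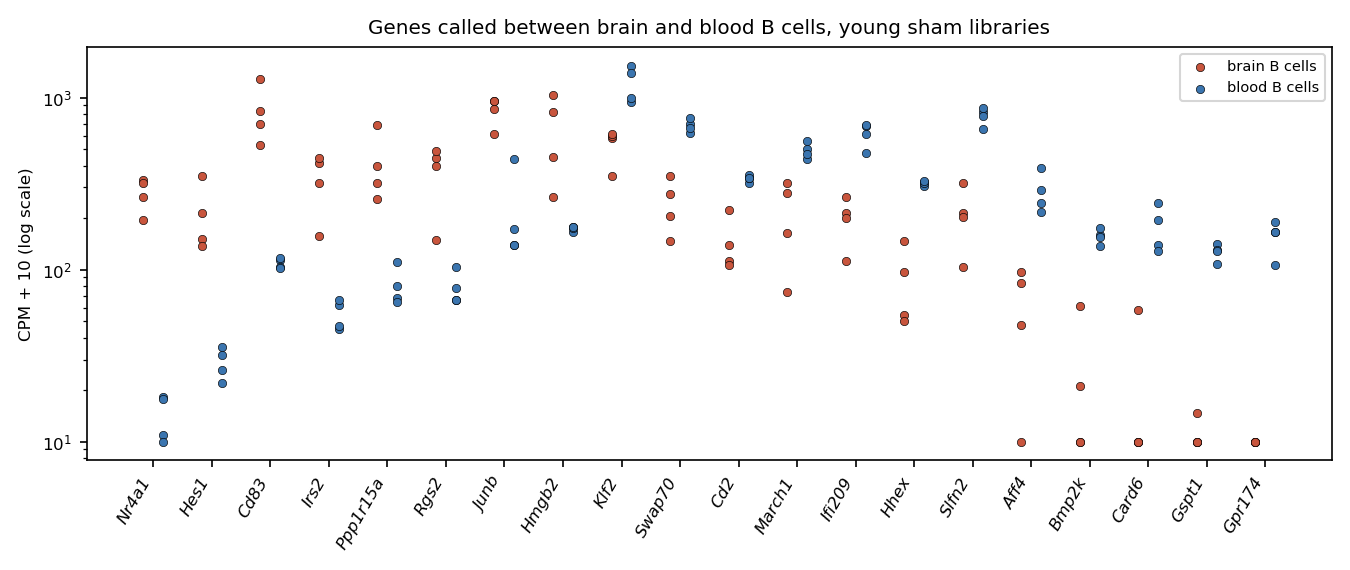
Level of the 20 named genes called between brain (red) and blood (blue) B cells of young sham mice, 4 libraries each, as CPM plus 10 on a log axis. Genes are ordered by fitted log2 difference, whose size is uncertain for genes at or near 0 counts in brain, and the rule that named them required that brain and blood libraries do not overlap.

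The genes lower in brain B cells included Klf2, Hhex, Swap70 and Slfn2. Klf2, a transcription factor that keeps naive lymphocytes quiescent and recirculating, was at 571, 339.6, 586 and 599.8 CPM in brain sham libraries and 1519, 938, 989 and 1373 CPM in blood. All brain libraries lay below all blood libraries, with a log2 difference of -1.51 ± 0.31 (SE; edgeR adjusted p = 0.0226). Hhex, a homeobox factor needed for B cell memory and development, was at 44.1, 40.5, 136 and 87.3 CPM in brain and 296 to 316 CPM in blood (-2.12, adjusted p = 0.0203). Swap70, a B cell protein of cell movement, was at 137 to 339 CPM against 615 to 749.8 CPM (-1.68, adjusted p = 0.0161). Slfn2, which maintains lymphocyte quiescence, was at 93.2 to 309 CPM against 649 to 858 CPM (-2.34, adjusted p = 0.00115).

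Gpr174, a receptor for lysophosphatidylserine in lymphocytes, had no count in any of the 4 brain sham libraries against 554 counts in blood. Set against a floor of 3 counts over the whole brain group, it was at least 4.04-fold lower. Gspt1, a translation termination factor, had less than 1 count in brain and was at least 3.22-fold lower on the same floor. Card6 and Bmp2k each had 1 count, and Aff4 had 4. Their ratios of blood to brain were 13.6 (95% exact interval 2.44 to 539), 11.8 (2.11 to 468) and 5.43 (2.12 to 20.0), covering counting error only. At day 14 Gpr174 was at 277, 173, 56.8 and 132 CPM in brain and 115 to 145 CPM in blood, so the groups overlapped there. The library at 277 CPM, replicate 1, was outside the day 14 fit.

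Maturity was read from several gene lists. Of the 11 genes of mature follicular B cells, all were tested, 1 fell (Klf2) and none rose, beside 0.316% of all genes called lower. Their median log2 difference was -1.10 beside -0.34 for all genes, and 5 of the 11 had brain libraries wholly below blood, against 7.98% of all genes tested. Cxcr5, which guides B cells to follicles, was at 192 CPM in 1 brain sham library and 0 in the other 3, against 251 to 325 CPM in blood (-2.24, adjusted p = 0.109). Fcer2a, the low-affinity IgE receptor of follicular cells, was at 361, 324, 319.9 and 0 CPM against 536 to 614 CPM (-1.30, adjusted p = 0.133). Ccr7, a lymph node homing receptor, was at 771, 429.9, 710.4 and 0 CPM against 213 to 338 CPM (0.72, adjusted p = 0.455). Cr2, the complement receptor CD21, was 122 ± 146 CPM against 228 ± 11.4 CPM (SD, n = 4 each; edgeR adjusted p = 0.503). At stroke day 2, Cr2 had 0 counts in all 4 brain libraries against 538 in blood and was called (edgeR adjusted p = 0.0221), at least 2.76-fold lower on a floor of 3 counts over the brain group. It was the only gene of this list called there, beside 0.766% of all genes called lower at day 2.

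The other lists gave few or no calls in brain against blood. None of the 18 identity genes, 20 receptor signalling genes, 11 tested antigen presentation genes or 5 tested survival genes was called. Their median log2 differences were -0.35, -0.75, -0.39 and -0.33 beside -0.34 over all genes. Cd74, the MHC class II invariant chain, was 17130 ± 5848 CPM in brain and 17488 ± 2696 CPM in blood (SD, n = 4 each; edgeR adjusted p = 0.787). Of the 15 trafficking genes 14 were tested and only Klf2 was called. With 0.631% of all genes called, lists of this size would rarely hold a call, so these counts do not set the lists apart from other genes.

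Of 6 early B genes counted per cell, those listed in the brain tables were at 0 in brain B cells. Dntt, the terminal transferase of receptor assembly, and Vpreb1, part of the surrogate light chain, had 0 counts in all 542 brain B cells, which allows a share of cells with a count of up to 0.554%. Over the 345 brain B cells with enough counts to be thinned to 300, the share was also 0. Rag2 is listed in the aged brain tables, where it was at 0 in B cells. The young brain tables used here do not list Rag1 and Rag2, and the blood tables do not list Dntt, so Vpreb1 is the only gene of this group compared in both. No sham blood B cell had a count of it or of Rag1 and Rag2 (0 of 6956, up to 0.0431%). T cells had 1 cell with a count of the listed early genes among 2126 in brain, at median depths per library of 125 to 1078 counts against 133 to 806 for B cells, after rounding to whole counts in each cell. In blood after stroke, where Rag1, Rag2 and Vpreb1 are listed, 11 of 5120 B cells at day 2 and 6 of 6263 at day 14 had a count, beside 1 of 1976 and 7 of 2718 T cells. All 11 at day 2 came from replicate 4 (11 of 1346), the other 3 libraries had 0, and 5 remained after thinning to 300. A difference in early B cells was therefore not detectable at this depth. Vpreb3, which persists in immature and transitional cells, was present at 872, 761, 280.3 and 0 CPM in brain sham and 276 to 547 CPM in blood (log2 difference 0.11, edgeR adjusted p = 0.958).

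The balance of IgD to IgM was lower in brain. Ighd made up 30.4%, 14.5%, 39.1% and 9.18% of the summed Ighd and Ighm counts in brain sham libraries and 46.1%, 50.4%, 44.1% and 50.4% in blood. The mean was 23.3% ± 13.9 in brain and 47.8% ± 3.18 in blood (SD, n = 4 each), with no overlap (exact two-sided permutation p = 0.0286, the smallest possible). The difference of -24.5 points shrank to -8.32 points (exact permutation p = 0.171) when 5 brain cells very rich in immunoglobulin were left out, and the mean of brain was then 39.4%. As a mean over single cells the difference was -11.4 points (exact permutation p = 0.0286).

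These immunoglobulin-rich cells stood apart from all others. In most brain B cells immunoglobulin and J chain genes made up a few percent of the counts (median 2.11%), but in 12 of 542 they made up 28.3% to 73.8%. The highest of the other cells was at 10.9%, and 1 brain cell lay between 10% and 20%, so the bound of 20%, set after the values were seen, falls in a gap. It marks a range, not a cell type. In blood, 2 of 6956 sham B cells exceeded it, at 28.2% and 48.6%, and 1 lay between 10% and 20%.

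The 12 brain cells came from few libraries. Young sham replicate 4 held 4 of its 30 B cells, sham replicate 2 held 1 of 60, and sham replicates 1 and 3 held none of 47 and 98. At day 2, replicate 4 held 2 of its 10 B cells and the other 3 libraries none. None was seen among the 141 B cells at day 14, which allows a share of up to 2.13%. Aged libraries held 2 of 37 in male sham, 1 of 20 in female sham and 2 of 11 in male stroke at day 2. The aged female stroke libraries held none of 18 and 4 at day 2 and none of 6 at day 14. Young sham brain thus held 5 such cells among 235, and 1 among 205 without replicate 4. Both blood cells came from sham replicate 2. No test over libraries was made.

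In all 12 brain cells the leading heavy chain was Ighm, whereas in both blood cells it was Igha. The 5 young sham cells held 312 of the 606 Ighm counts (51.5%) and all 59 Jchain counts of the sham B cells, but 0 of their 170 Ighd counts and 1 of their 276 Ms4a1 counts. The J chain joins IgM and IgA into polymers, and CD20 is lost as B cells become antibody-secreting cells. The cell with the most counts, in day 2 replicate 4, had 5151 counts, of which 73.8% were immunoglobulin, with 320 counts of Ighm, 1867 of Iglc1 (a lambda light chain), 213 of Jchain and 18 of Mzb1, a chaperone of IgM secretion. It also held 5 counts of Il10, an anti-inflammatory cytokine, and the other such cell of that library held 2. B cells of every other young brain library were at 0 for Il10, which the blood tables do not list. None of the 14 immunoglobulin-rich cells of both tissues held more than 1 count of Cd79a. Sdc1, a surface marker of plasma cells, was at 0 in all 14.

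**Figure D3:**
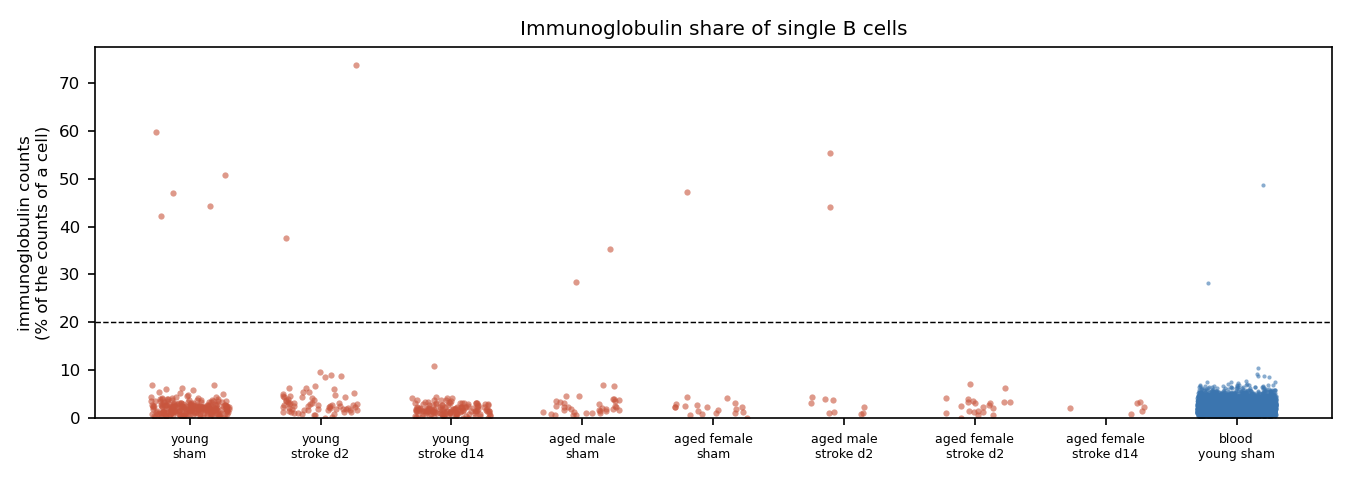
Percent of the counts of each B cell that came from immunoglobulin and J chain genes, by group, for 542 brain cells (red) and 6956 sham blood cells (blue). The dashed line is the bound of 20%, which 12 brain cells and 2 blood cells exceed.

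In sham replicate 4, 3 of the 4 immunoglobulin-rich cells carried counts of Igkv6-20, a kappa light chain variable gene. Its 25 counts in that library fell in 4 cells, all B cells, and the other 3 sham libraries had none. The cell barcodes of the 4 immunoglobulin-rich cells differed from each other at 8 or more of 12 bases. The young brain tables list 2 variable genes in all, against 147 in blood, so these counts cannot show whether the cells form a clone. Free RNA within that library was not tested as a source.

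In young brain, class switching could be read from Igha alone, since those tables list no Ighg gene. Igha, the heavy chain of IgA, had 0 counts in young sham and day 2 brain B cells, and 89.8 CPM in 1 day 14 library, which is 1.99 counts. In blood sham it was at 18.3, 323, 10.8 and 21.7 CPM. In the aged female library of day 2 replicate 1 Igha reached 2700 CPM, and in replicate 2 546 CPM, while the other 4 aged brain libraries had none. These 2 libraries held 18 and 4 B cells, and the aged libraries 28.96 Igha counts in all. The aged tables also list Ighg1, Ighg2b, Ighg2c and Ighg3, heavy chains of IgG. Ighg2b had 2 counts in the female sham library and Ighg3 had 0.966 counts in the female day 14 library, and all 4 genes were at 0 in B cells of the remaining aged libraries.

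Part of the difference between brain and blood B cells was also present after stroke, in libraries that share none with the sham comparison. The day 14 fit held 3 brain libraries, since replicate 1 had 9 B cells. At day 14, 17 of 6202 genes tested were called (0.274%, with 0.129% higher and 0.145% lower in brain). All 28 genes of the sham comparison had the same direction in this fit. In the left-out library Gpr174 was above every day 14 blood library. Of all genes higher in brain in sham, 40.2% were also higher at day 14, and of those lower, 77.4% were also lower. At day 2, 22 of 1436 genes were called (1.53%; 0.766% in each direction), and of the 28 genes 22 were tested and 20 had the same direction, Cd2 and Hmgb2 being the exceptions. Of all genes tested there, 54.7% of those higher in sham were also higher at day 2, and 72.1% of those lower were also lower. Of the 28, 7 were called in the same direction at day 14 (Cd83, Nr4a1, Jun, Junb, Rgs2, Ctsd and Hhex) and 5 at day 2 (Cd83, Junb, Apoe, Ctsb and Ctsd). Of the 14 lower genes, 1 was called again at day 14 and 0 at day 2. Apoe, Ctsb, Ctsd and Jun are among the genes held far higher by another brain cell type in sham. Libraries did not overlap for 5.76% of genes higher and 15.3% lower at day 14, and for 2.65% higher and 8.22% lower at day 2. These 2 comparisons were added after the data were seen.

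Cd83 remained above blood in the young brain libraries after stroke. It was at 347, 417, 837 and 1247 CPM at day 2 and at 728, 719.5, 1407 and 612 CPM at day 14, above every young blood library, and at 229 to 828 CPM in the 6 aged brain libraries. Its log2 difference from blood was 2.53 ± 0.43 at day 2 (SE; edgeR adjusted p = 1.34e-05) and 2.47 ± 0.34 at day 14 (adjusted p = 0.00145). Nr4a1 was at 325, 255, 0 and 0 CPM at day 2, where it was too low to be tested, and at 144, 80.6, 571 and 120.1 CPM at day 14 (6.11 ± 0.71 SE, adjusted p = 0.00014). Klf2 was at 743, 1028, 560.4 and 391 CPM at day 2 (-0.87, adjusted p = 0.385) and at 421, 722, 455 and 484 CPM at day 14 (-1.27, adjusted p = 0.2), and at both times the brain libraries overlapped those of blood.

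**Figure D4:**
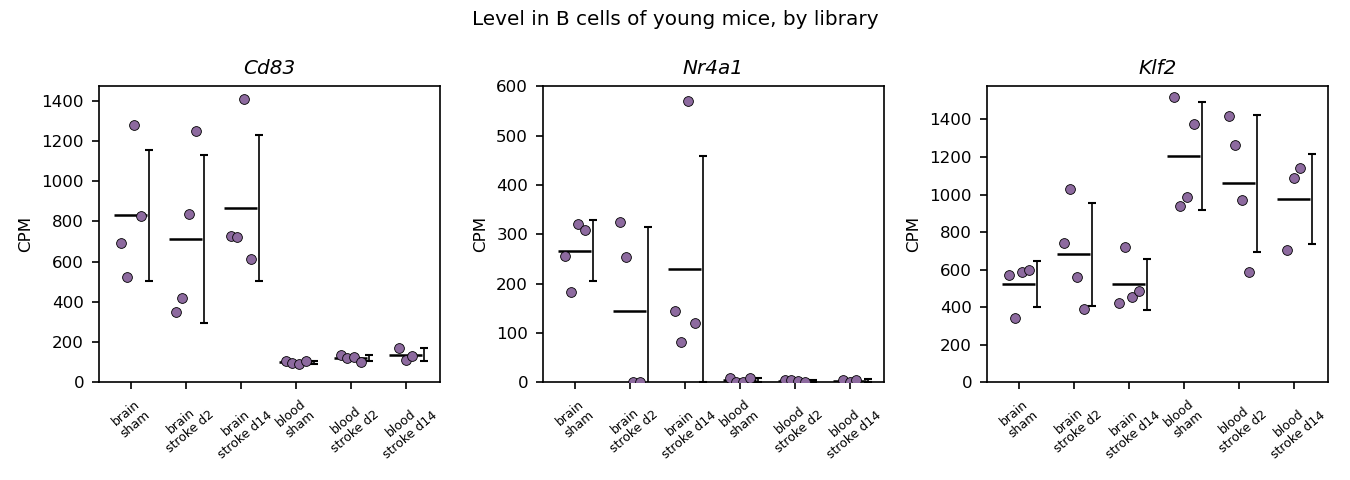
Level of Cd83, Nr4a1 and Klf2 in CPM in B cells of each young brain and blood library, by group. Points are libraries, lines and bars are the mean and SD. Cd83 is above every blood library in all 12 brain libraries, and the 4 sham brain libraries of Klf2 lie below the 4 sham blood libraries.

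Other genes were called between brain and blood B cells after stroke only in one or the other comparison, and a difference from sham was not tested. At day 14, Syk, the kinase that relays the B cell receptor signal, was at 176 to 319.7 CPM in brain and 692 to 1186 CPM in blood (-2.23, edgeR adjusted p = 0.0181). Mef2c, a transcription factor of B cell proliferation, was 269 ± 143 CPM against 746 ± 104 CPM (SD, n = 3 each; -1.90, adjusted p = 0.0397). Day 14 replicate 1, outside this fit, had more Mef2c than each fitted brain library, at the level given below. Bcl2a1b, a survival gene induced by NF-kB, was 254 ± 59.6 CPM against 27.8 ± 10.3 CPM (2.85, adjusted p = 0.0171). At day 2, Nfkbid, an NF-kB regulator induced in activated B cells, was 328 ± 187 CPM against 21.9 ± 5.40 CPM (SD, n = 4 each; 3.61, adjusted p = 0.00279).

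Within the brain, edgeR called none of 239 genes tested between day 2 and sham, day 14 and sham, or day 14 and day 2 (0% in each). At an unadjusted p under 0.05 there were 7, 4 and 11 genes, and DESeq2 also called 0 in each. Without a filter on low counts, edgeR called 3, 2 and 3 of 11201 genes. Day 14 replicate 1, with 9 B cells, did not enter these fits, in which a library needed 10 B cells. The values that follow are therefore not calls. The libraries of the 2 groups did not overlap for 0.418% of genes on the higher and 1.67% on the lower side at day 2 against sham, for 2.51% and 0.418% at day 14 against sham, and for 2.51% and 1.26% at day 14 against day 2. In data simulated on these libraries, 17.1%, 50% and 85.7% of genes changed 2-, 4- and 8-fold between day 2 and sham were recovered. There were 3 false calls among 236 genes. That simulation changed 41, 36 and 42 of the 236 genes by these folds. Adjusted p-values pass more easily when so many genes change, so these rates can overstate recovery in the data. The other 2 comparisons within brain were not simulated.

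At day 14, a few genes had higher values than in sham without passing the test. Ly6a, the antigen Sca-1, was at 273, 101, 58.7 and 312 CPM in sham and at 679.9, 851, 913 and 591 CPM at day 14, without overlap (log2 difference 2.16 ± 0.70 SE, edgeR adjusted p = 0.994). Endothelial cells held it at 4.93 times the B cell level. Ifi27l2a, an interferon-induced gene, was at 395, 143, 384 and 733 CPM in sham and at 575, 772, 1392 and 845 CPM at day 14 (1.28, edgeR adjusted p = 0.994), and day 14 replicate 1 lay below the highest sham library. Bst2, the antiviral protein tetherin, was too low to be tested and stood at 98.6, 0, 60.9 and 0 CPM in sham and at 144, 235, 257 and 193 CPM at day 14. The 12 listed interferon genes summed to 378 to 939 CPM in brain sham, 499 to 1889 CPM at day 2 and 1005 to 2336 CPM at day 14, with sham wholly below day 14. In blood B cells the same sum was 560 to 875 CPM in sham and 653 to 917 CPM at day 14. Only 1 of the 12 genes was tested within brain, and it was not called. Marker lists of other cells moved both ways from sham to day 14, and their ranges overlapped. Medians of the neutrophil, platelet, T cell and endothelial lists fell (186 to 0, 76.9 to 0, 94.4 to 66.5 and 114 to 69.9 CPM). Those of the dendritic, oligodendrocyte and astrocyte lists rose (97.8 to 246, 166 to 271 and 0 to 7.11 CPM), as did the lists that follow. The 10 microglial markers summed to 0 to 1457 CPM (median 578) in sham and 15.0 to 5977 CPM (median 1193) at day 14, when 9 of them were detected and Sall1 was at 0. The 10 monocyte and macrophage markers summed to 859 to 3516 CPM (median 1764) in sham and 83.2 to 8537 CPM (median 2879) at day 14, when 4 were detected and Ms4a7, Fn1, Chil3, Vcan, F13a1 and Mrc1 were at 0. Their part in the interferon values was not tested.

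The remaining genes that the naming rule gives for the brain comparisons moved without a call. At day 14, Cd52, a small lymphocyte surface glycoprotein, was at 2567 to 4534 CPM in the 3 fitted libraries against 1151 to 2410 CPM in sham (0.99), and Hsp90ab1, a constitutive chaperone, at 3661 to 6587 CPM against 2282 to 3445 CPM (0.72). Arhgdib was 1595 ± 216 CPM at day 14 (SD, n = 3) and 972 ± 337 CPM in sham (SD, n = 4; 0.62), and Mef2c was 125 to 411 CPM at day 14 against 421 to 813 CPM in sham (-1.24). Day 14 replicate 1, outside the fit, was within the sham range for Arhgdib (726 CPM) and Mef2c (658 CPM) and below it for Hsp90ab1 (2050.2 CPM). At day 2, Oaz1, which limits polyamine synthesis, was at 1003, 1022, 952 and 535 CPM against 222 to 532 CPM in sham (1.21, edgeR adjusted p = 0.995). Between day 14 and day 2, Igkc, the kappa light chain, had a log2 difference of -3.51 (edgeR adjusted p = 0.944), which was -0.55 without the immunoglobulin-rich cells and -0.57 without day 2 replicate 4. Ralgps2, Itm2b, Hsp90ab1 and Gimap6 had differences of -1.39, -1.14, 0.80 and 0.95.

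The early response level did not separate the brain groups. The 20 genes summed to 4898 to 7972 CPM in sham, 3978 to 8307 CPM at day 2 and 5600 to 6903 CPM at day 14, and the 3 genes of the list tested within brain had a median log2 difference of -0.07 at day 2 and -0.49 at day 14. The 11 mature follicular genes summed to 3759 to 7619 CPM in sham, 893 to 9874 CPM at day 2 (2330 or more without replicate 4) and 3886 to 7392 CPM at day 14, against 9028 to 10165 CPM in sham blood. In day 2 replicate 4, 1 immunoglobulin-rich cell held 5151 of the 8380 B cell counts, which lowers the CPM of every other gene there. The 6 antigen presentation genes tested within brain had medians of -0.42 at day 2 and -0.08 at day 14, beside 0.03 and -0.03 over all genes. The IgD share of the IgD and IgM counts was 24.2%, 17.4%, 25.5% and 0.646% at day 2 and 27.0%, 23.5%, 25.3% and 44.1% at day 14. These values lay within the sham range of 9.18% to 39.1% except the lowest at day 2 and the highest at day 14. The low value at day 2 belongs to replicate 4, which holds the 2 immunoglobulin-rich cells.

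**Figure D5:**
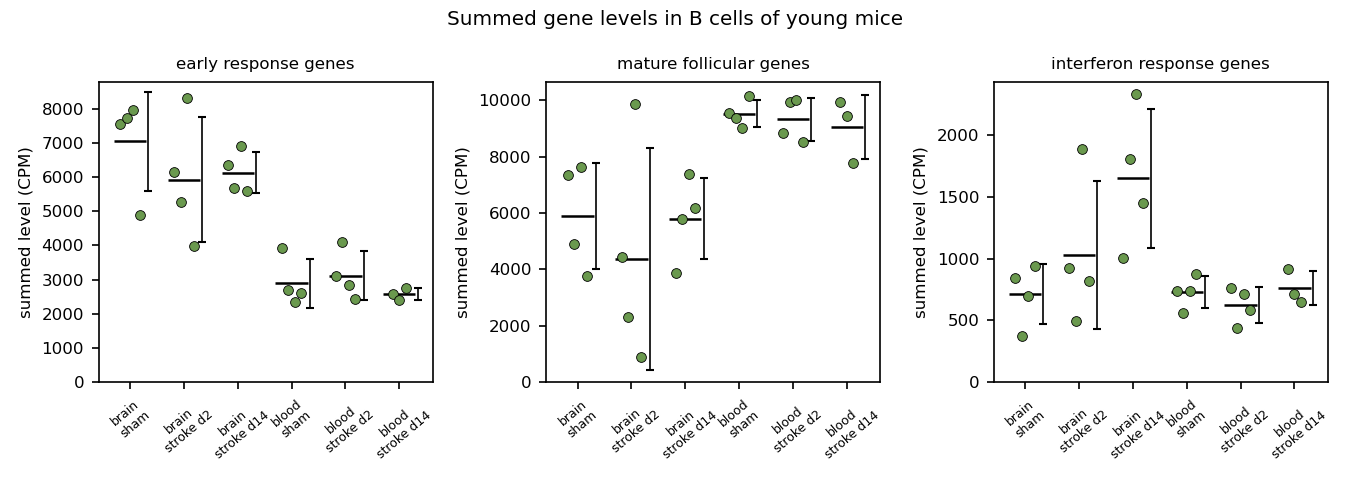
Summed CPM of the early response, mature follicular and interferon response genes in B cells of each young library, by tissue and group. Points are libraries, lines and bars are the mean and SD. The 12 young brain libraries are at 3978 CPM or more for early response genes, 1 blood library of stroke day 2 is above the lowest of them at 4114 CPM, and the sham brain libraries lie below the day 14 brain libraries for interferon response genes.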

How the data were processed

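The authors deposited, per gene and cell, expected counts that need not be whole, and a cell annotation with codes, genes detected as counts and mitochondrial reads in percent. Per the submitters' processing notes, mm10 and Seurat were used; the aligner and filters are not given in the sources used here. Counts were summed per library over B cells, rounded and tested with edgeR 4.0.16 (R 4.3.3, quasi-likelihood, TMM, filterByExpr, Benjamini-Hochberg, threshold 0.05), with DESeq2 1.42.0 as an alternative. A library needed 10 B cells. Shares used edgeR on cell numbers and exact permutation tests over libraries (scipy 1.17.1). The labels do not say that libraries are independent animals, so p-values measure the spread between libraries, which may be technical. Named genes were the called ones, or, without calls, those with the smallest p. Their libraries do not overlap, and their mean was at least 100 CPM in a compared group. In the group where the gene was higher, no other cell type of that tissue was above 5 times the B cell level. CPM scales a gene's count to the summed counts of the B cells of a library. Scrublet marked at most 0.225% of cells and has not worked here, so doublets were not removed. Tests were checked on simulated data. Members and gene lists were chosen with earlier results of these data known. Zero limits use 3 counts, intervals are 95%, and both cover counting error only. The deviations of same-numbered day 2 and day 14 brain libraries correlated at 0.444, 0.774 and 0.234 across genes. Those of different numbers ran from -0.592 to 0.355. The main fits did not pair libraries, and pairs by number were run only as an alternative, the replicate block. The labels do not state a shared batch.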

Additional observations from a re-analysis of the deposited data

Results flagged for a closer look

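Of 49 groups of libraries tested, 7 had 1 library far from the others. How many chance alone would flag was not measured. Stroke day 2 replicate 4 held 2 immunoglobulin-rich B cells and the other day 2 libraries none, and in sham blood both of the 2 such cells came from replicate 2. Day 14 replicate 4 had the highest IgD share of IgD and IgM counts, 44.1%. In brain sham B cells, Card6 had 48.3 CPM in 1 library and 0 in the others, Gspt1 had 4.70 CPM in 1 library and 0 in the others, and Klf2 was lowest in replicate 2, at 339.6 CPM. In blood sham B cells, Junb was highest in 1 library, at 429.9 CPM.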

How the results depend on the processing

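The fall of the B cell share at day 2 (log2 -1.76) ranged from -2.11 to -1.22 over fits without 1 library, was -1.76 by the exact permutation test (p = 0.0571) and -1.69 with the replicate block. With leukocytes other than microglia as the total, edgeR gave -2.35 at day 14 against sham (adjusted p = 0.000559) and 1.52 at day 14 against day 2 (adjusted p = 0.0133; exact permutation p = 0.0857, libraries overlapping), both past the threshold in edgeR, unlike the share of all cells (-0.55 and 1.14 with the replicate block). Shares among cells of at least 800 counts gave no value, since too few B cells remained. The IgD difference was -24.5 points with the replicate block (exact paired permutation p = 0.125), -8.32 without immunoglobulin-rich cells, an alternative chosen after seeing the data, and -29.7 to -19.8 without 1 library. With 4 pairs, the exact paired permutation test can give no p smaller than 0.125. Without a filter on low counts, 3, 2 and 3 genes were called within brain (day 2 and day 14 against sham, day 14 against day 2) and 158 between sham brain and blood. Between sham brain and blood, DESeq2 called 43, the replicate block 30, and fits without 1 library 4 to 27. The replicate block called 0 genes in each comparison within brain. Same-numbered libraries did not deviate together in the comparisons with sham, or of sham brain with sham blood, and share only a number there; brain and blood after stroke were not checked. Between day 2 and day 14 they did, and the block changed no call in that comparison. The cause of these changes was not tested. Of 715 values of single genes under alternatives, 608 kept direction and side of the threshold, 107 were no longer past it and 0 reversed. All 107 belong to the 28 genes called between sham brain and blood, as in 8 of 19 values for Junb and 9 of 16 for Cd2. Cd83, Nr4a1, Slfn2 and Cst3 had 0 such values. The values of genes named within brain had no call to lose. With summed B cell counts of 3794 to 38694 in young brain libraries, depth limits all comparisons within brain.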
